A study of Mus musculus with 7 samples.

Results

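Birc5, Incenp and Fopnl are 3 mouse genes for the machinery of cell division whose splicing events were taken from a deposited table of exon inclusion. All rows under these gene names were used, which gave 4 events of the 278 listed under 228 gene names: 1 in Birc5, 1 in Incenp and 2 in Fopnl. All 4 are cassette exons, which are kept or skipped as a unit, as are 173 of the listed events. Each event carries a percent spliced in (PSI) value for each library, the percentage of the event's reads that support keeping the exon. RNA came from the epithelial tissue of the cervical loop, the tip at which the incisor grows, in mice aged 8 to 10 weeks. The 3 control libraries (replicates 1, 2 and 7) and the 4 mutant libraries (replicates 3, 4, 5 and 9) share the genotype K14CreER;Srsf1fl/fl, a tamoxifen-inducible Cre recombinase under the keratin 14 promoter together with loxP-flanked alleles of Srsf1, which encodes an SR splicing factor. Control mice were not induced and mutant mice were induced with tamoxifen, so an effect of the drug and one of the deletion cannot be told apart. The comparison asks which exons are used differently after induction.

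The chromosomal passenger complex sits at the inner centromere early in mitosis, where it corrects faulty kinetochore attachments, and later moves to the spindle midzone, where it guides the cut between daughter cells. Its kinase is Aurora B, and INCENP is the scaffold that binds survivin and borealin near one end and activates the kinase with the other. Survivin, the product of Birc5, brings the complex to chromatin through a zinc-binding BIR domain and is also known as an inhibitor of apoptosis. Fopnl, named Cep20 in RefSeq, encodes a small protein of centrosomes and centriolar satellites that is needed to build cilia. The incisor grows throughout life, and the cervical loop holds the dividing epithelial cells that supply it.

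The exons themselves show how much of each protein the events concern, and their sequences are printed for that reason, in GENCODE M21 transcript sequence on GRCm38. Capitals mark the cassette exon, and the 15 lower-case bases on each side belong to the neighbouring exons of the spliced transcript.
Birc5 exon 2: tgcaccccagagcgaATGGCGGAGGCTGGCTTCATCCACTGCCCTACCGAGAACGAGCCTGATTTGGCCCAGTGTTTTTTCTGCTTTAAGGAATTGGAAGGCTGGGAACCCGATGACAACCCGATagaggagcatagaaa
Incenp exon 13: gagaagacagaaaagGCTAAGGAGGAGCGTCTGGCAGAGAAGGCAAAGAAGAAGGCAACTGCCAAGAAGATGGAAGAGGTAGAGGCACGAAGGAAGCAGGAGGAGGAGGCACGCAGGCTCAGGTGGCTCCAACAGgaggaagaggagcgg
Fopnl exon 2: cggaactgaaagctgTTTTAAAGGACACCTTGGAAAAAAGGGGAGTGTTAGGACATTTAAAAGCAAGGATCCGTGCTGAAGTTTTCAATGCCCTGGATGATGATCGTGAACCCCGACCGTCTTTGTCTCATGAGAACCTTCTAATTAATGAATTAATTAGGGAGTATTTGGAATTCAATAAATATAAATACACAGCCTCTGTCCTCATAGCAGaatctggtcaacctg
Fopnl exon 3: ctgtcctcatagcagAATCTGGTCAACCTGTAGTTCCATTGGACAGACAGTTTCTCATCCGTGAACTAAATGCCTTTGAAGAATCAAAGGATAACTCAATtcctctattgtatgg

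Birc5 exon 2 lies on the plus strand at chr11:117849754-117849863 (ENSMUSG00000017716.15), and Incenp exon 13 on the minus strand at chr19:9877677-9877796 (ENSMUSG00000024660.9). Fopnl exon 2 lies on the minus strand at chr16:14313816-14314013 and Fopnl exon 3 at chr16:14311047-14311131 (ENSMUSG00000022677.15). All 4 are wholly coding. Birc5 exon 2 has 110 bases and Fopnl exon 3 has 85, and neither length is divisible by 3. Incenp exon 13, with 120 bases, and Fopnl exon 2, with 198, keep the reading frame when skipped. Among all 173 listed cassette exons, 102 have a length divisible by 3 (59.0%). The Incenp exon is 57.5% GC and 75.0% purine, against 38.9% GC and 53.5% purine for Fopnl exon 2, 38.8% and 50.6% for Fopnl exon 3, and 53.6% and 50.0% for Birc5 exon 2.

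**Figure D1:**
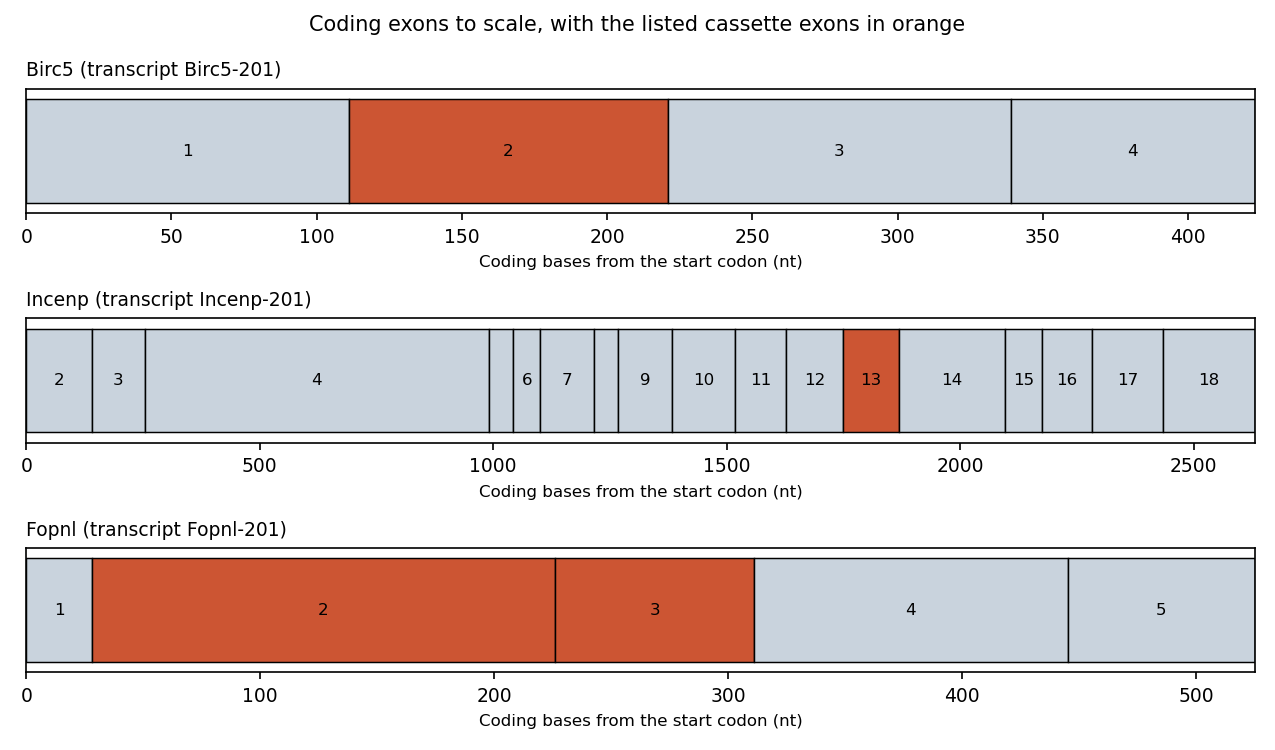
Coding exons of the reference transcripts of Birc5, Incenp and Fopnl, drawn to scale in coding bases from the start codon, with exon numbers inside the boxes and the listed cassette exons in orange. The exons take up 1 of 4 Birc5 exons, 1 of 18 Incenp exons and a neighbouring pair among 5 Fopnl exons; the first Incenp exon holds no coding sequence and is not drawn.

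Purine-rich letters are described for binding of SRSF1 and were counted on the RNA strand only, with overlapping matches allowed. GGA occurred 7 times in Incenp exon 13, and 2.26% of 1419 annotated internal coding exons of the same length held at least as many. It occurred 8 times in Fopnl exon 2 (12.4% of 459 exons of that length held as many), 4 times in Birc5 exon 2 (26.7% of 1103) and 2 times in Fopnl exon 3 (57.2% of 968). GAAGAA occurred 1 time each in Incenp exon 13 and Fopnl exon 3, and is held by 13.7% and 9.09% of exons of those lengths. It was not found in the Birc5 exon or Fopnl exon 2, where 12.7% and 17.4% of same-length exons hold it. GGAGA, which contains GGA, was found in none of the 4 exons, while 17.8% to 38.1% of same-length exons hold it. These matches are letters in a window and show no binding.

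Inclusion was lower in the mutant libraries for all 4 exons, with differences of mean PSI from −30.5 to −11.0 percentage points. The difference was larger for the Fopnl exons than for the passenger complex exons. The latter had control means of 90.9% (Birc5) and 98.6% (Incenp). Every one of the 4 mutant libraries lay below every control library in all 4 events, as it did in 79.1% of the 278 listed events. All 4 events passed the limma test as lower in the mutant (Benjamini-Hochberg adjusted p below 0.05 over 278 events), as did 78.8% of all listed events. Every event in the table has a DRIMSeq corrected p below 0.1 in this same contrast (largest 0.0979), which is read here as its selection limit. The genes were chosen by function from among the table's rows with the results known. The members were thus selected on DRIMSeq p-values and PSI differences of this contrast. No p-value is therefore read for the 4 events, and their values are a description. In bulk tissue, lower inclusion in every cell and fewer cells that include the exon cannot be told apart. Whether the libraries of a group stem from different animals is not given, so the spread between them may be technical in part.

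**Figure D2:**
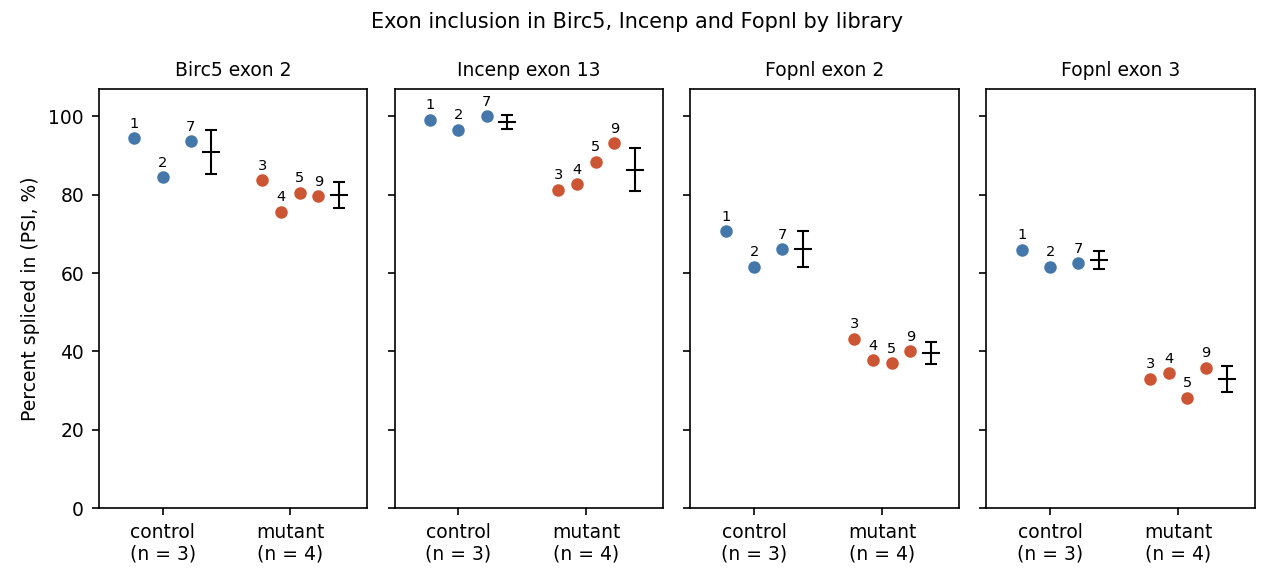
PSI in percent (vertical axis) of the 4 exons in each control library (blue) and mutant library (orange), with replicate numbers beside the points and the group mean ± SD to their right. The groups are separate in each panel, by 0.76 points in Birc5 and by 25.78 points in Fopnl exon 3.

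Birc5 exon 2 was kept at 94.50% in control 1, 84.43% in control 2 and 93.69% in control 7. In the mutants its PSI was 83.67%, 75.63%, 80.56% and 79.69% in libraries 3, 4, 5 and 9. Control 2 stood under the other controls and only 0.76 points above mutant 3, so the gap between the groups was smaller than the SD within either of them. Mean PSI was 90.9% ± 5.59 (SD, n = 3) in the controls and 79.9% ± 3.31 (SD, n = 4) in the mutants, a difference of −11.0 points (limma SE 3.08). Skipped transcripts thus made up 9.13% of the event's reads on average in the controls and 20.1% in the mutants. Without control 2 the difference was −14.2 points, and without control 1 it was −9.17 points. In the authors' deposited table this event has a JuncBASE corrected p of 0.424 and a DRIMSeq corrected p of 0.0828, rank 255 of 278. By DRIMSeq it is the member nearest to the limit of the table, where the largest value is 0.0979. No event beyond that limit is listed.

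The Birc5 exon covers codons 38 to 74 of the 140 codons of survivin and begins on a codon boundary. The zinc-binding signature of BIR domains (C-x2-C-x16-H-x6-C) was found 1 time in the translated transcript. Its first 2 cysteines are at codons 57 and 60, inside the exon, and its histidine and last cysteine are at codons 77 and 84, in exon 3. Skipping the exon removes 110 bases and shifts the frame. The joined transcript is shown here from the last 15 bases of exon 1 to its first in-frame stop codon, in capitals.
Birc5 without exon 2: tgcaccccagagcgaagaggagcaTAG

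That reading frame holds 40 codons, 37 of them from exon 1, and RefSeq lists survivin40 among the synonyms of the gene. In the 4-exon transcript the new stop lies 106 bases upstream of the last exon junction, a position that nonsense-mediated decay can recognise. In the 3-exon transcript, which runs on past exon 3 and encodes 121 codons, the same stop falls in the last exon. The 3 junctions of the event do not tell these forms apart, because both share exons 1 and 2 and the start of exon 3. The junction from exon 1 to exon 3, chr11:117849462-117852662, matches no M21 intron, whereas both inclusion junctions are annotated.

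Incenp exon 13 was kept in nearly all transcripts of the controls, with PSI values of 99.17%, 96.59% and 100% in libraries 1, 2 and 7. Mutant libraries 3, 4, 5 and 9 had 81.25%, 82.72%, 88.44% and 93.18%. The mutants were spread more widely than the controls, and mutant 9 came within 3.41 points of control 2, the lowest control. The mean was 98.6% ± 1.78 (SD, n = 3) in the controls and 86.4% ± 5.48 (SD, n = 4) in the mutants, a difference of −12.2 points (limma SE 3.09). The skipped form was at 0.83%, 3.41% and 0.00% in the controls and at 18.75%, 17.28%, 11.56% and 6.82% in the mutants. The table gives no read number per event, so no counting limit can be set on the value of 0 in control 7. Leaving out any 1 library gave differences from −14.5 to −10.5 points. Across the 65 listed cassette exons with a control mean of at least 95%, the median difference was −9.73 points.

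The Incenp exon codes for 40 residues, codons 584 to 623 of 876, and removes 4.57% of the protein without a change of frame, leaving 836 codons. It starts and ends on codon boundaries. Of its 40 residues, 23 are charged (aspartate, glutamate, lysine or arginine), which is 57.5% against 37.0% in the whole protein. Of the 837 windows of 40 codons in INCENP, 24.4% hold at least 23 charged residues, and the median window holds 13. Between its binding ends INCENP is known for a long charged helical stretch. The exon leaves the first 583 and the last 253 codons in place, the last of these with the Aurora B-activating end. The skipped form joins exon 12, in lower case, to exon 14, in capitals.
Incenp without exon 13: gagaagacagaaaagGAGGAAGAGGAGCGG

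The Incenp skipping junction, chr19:9876817-9878127, also matches no M21 intron, and both inclusion junctions match. By the authors' deposited table the Incenp event has a DRIMSeq corrected p of 0.00283, rank 82. Its JuncBASE corrected p is 0.305.

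Fopnl exon 3 had the larger change of its pair. It was kept at 65.96%, 61.63% and 62.50% in control libraries 1, 2 and 7, and at 33.08%, 34.48%, 28.21% and 35.85% in mutant libraries 3, 4, 5 and 9. The lowest control lay 25.78 points above the highest mutant. The mean was 63.4% ± 2.29 (SD, n = 3) against 32.9% ± 3.33 (SD, n = 4), a difference of −30.5 points (limma SE 2.38). It was the third largest difference of means among the 173 cassette exons. Among the reads counted for this event, the predominant form thus changed from inclusion in the controls to skipping, at 67.1%, in the mutants. Junctions that bypass exon 3 to reach exon 5 or a site inside exon 4 are listed for exon 2 alone. The value is therefore not the share of all transcripts without exon 3.

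Fopnl exon 2 was kept at 70.69%, 61.61% and 66.04% in the controls and at 43.31%, 37.76%, 37.06% and 40.00% in the mutants. Its groups were 18.3 points apart. The mean was 66.1% ± 4.54 (SD, n = 3) against 39.5% ± 2.81 (SD, n = 4), a difference of −26.6 points (limma SE 2.69) that ranked 10 among the cassette exons. Deposited DRIMSeq corrected p-values in the authors' table are 1.26e-08 for exon 3 (rank 7) and 6.31e-06 for exon 2 (rank 23). The JuncBASE corrected p-values are 0.150 for exon 3 and 0.201 for exon 2.

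The Fopnl events are not independent. Of the 10 distinct junctions listed for them, 4 serve both events, among them the junction from exon 1 to exon 4 (chr16:14304588-14317293), which counts as exclusion of either exon. The PSI of exon 3 minus that of exon 2 was −4.73 points in control 1, 0.02 in control 2 and −3.54 in control 7. In mutants 3, 4, 5 and 9 it was −10.23, −3.28, −8.85 and −4.15 points. The mean of exon 3 minus exon 2 was −2.75 points ± 2.47 (SD, n = 3) in the controls and −6.63 ± 3.43 (SD, n = 4) in the mutants, with overlapping groups. The 2 PSI values rest on partly different junctions. Only that of exon 2 draws on junctions to exon 5 and to a site inside exon 4. The junction from exon 1 to exon 2 is likewise listed for exon 2 alone, and that from exon 3 to exon 4 for exon 3 alone. PSI without junction counts does not show how often the pair was skipped together.

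Fopnl skipping can follow several annotated and unannotated paths. Exclusion of exon 2 was drawn from 4 junctions, of which the one from exon 1 to the start of exon 4 and the one to exon 5 belong to annotated transcripts, both classed as processed transcripts with no coding sequence. Exclusion of exon 3 was drawn from 2 junctions, the one from exon 1 to exon 4 and one from exon 2 to exon 4. The latter is absent from M21 and counts as inclusion of exon 2. In all, 5 of the 10 Fopnl junctions match an M21 intron. One unmatched exclusion junction, chr16:14304541-14317293, ends inside exon 4.

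The paths differ in the protein they would leave. Exon 2 codes for codons 10 to 76 and exon 3 for codons 76 to 104 of the 174 codons of the Fopnl protein, in its N-terminal and central part. Without exon 2 alone the frame continues to the normal stop and holds 108 codons. Without exon 3 alone the frame shifts and ends after 82 codons, and without both it ends after 16. In both shifted forms the stop lies 111 bases upstream of the last exon junction. The form without both exons is shown from the last 15 bases of exon 1 to its stop codon, in capitals.
Fopnl without exons 2 and 3: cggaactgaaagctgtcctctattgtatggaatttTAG

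Joining exon 1 to the inner splice site of exon 4 would restore the frame with 64 codons, and joining exon 1 to exon 5 would leave 35. The table holds no RNA levels, so neither the amount of any form nor the loss of transcripts with early stops was measured, and no protein was measured. For the same reason the labelled tissue could not be checked against its markers.

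**Figure D3:**
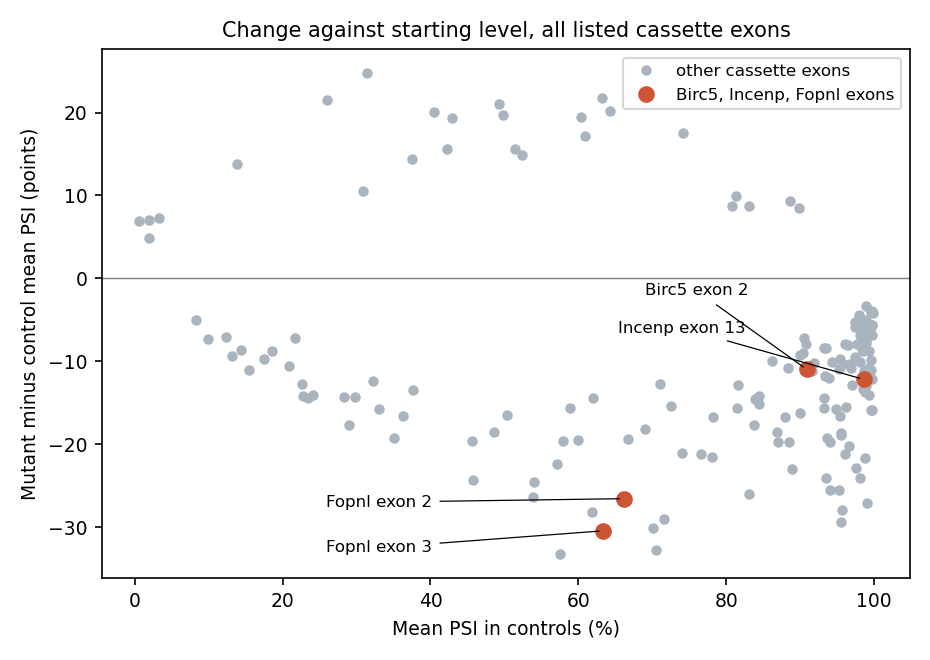
Difference of mean PSI, mutant minus control, in percentage points (vertical axis) against mean control PSI in percent (horizontal axis) for the 173 listed cassette exons, one point per exon. The Fopnl exons lie at −26.6 and −30.5 points from a middle starting level. The Birc5 and Incenp exons lie at −11.0 and −12.2 points, from control means of 90.9% and 98.6%.

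Against the other cassette exons, the Birc5 and Incenp differences ranked 104 and 95 of 173 by absolute size, somewhat below the middle of the listed range. The median of the signed differences, which include exons that were higher in the mutants, was −11.1 points. All 4 events are classed in the deposited table as containing a junction outside its annotation, as are 93 of the 173 cassette exons (53.8%). The order of the mutant libraries was not shared by the 3 genes. Mutant 4 was lowest for Birc5, mutant 3 for Incenp and mutant 5 for both Fopnl exons. Mutant 9, which kept the most Incenp exon 13 and Fopnl exon 3, was next to lowest for Birc5. For the Srsf1 event of the table, a junction that bypasses all later Srsf1 exons, PSI was 65.60%, 44.74%, 85.52% and 55.83% in mutants 3, 4, 5 and 9 and 5.83% to 10.07% in the controls. Mutant 5, highest for that event, had the lowest Fopnl inclusion, but for exon 2 it was close to mutant 4 (37.06% against 37.76%). Mutant 3, next highest for the Srsf1 event, had the highest Fopnl exon 2 inclusion of the mutants (43.31%) and the lowest Incenp inclusion (81.25%). Mutant 4, lowest for the Srsf1 event, had the lowest Birc5 inclusion.

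Some events of other genes had nearly the same profile, measured as the mean absolute difference over the 7 libraries after each event's control mean was subtracted. Closest to Incenp exon 13 were a cassette exon of Zmym3 (1.09 points, 98.7% ± 1.34 in controls and 85.0% ± 5.20 in mutants), a first exon of Cib1 (1.73 points) and a retained intron of Dnajc7 (1.76 points), where the median event was 5.05 points away. Closest to Birc5 exon 2 were cassette exons of Nt5c3b (1.93 points), Phpt1 (2.17) and Gtf2ird1 (2.50), with a median of 5.62. Fopnl exon 3 had more distant neighbours, among them a retained intron of Znhit6 (3.65 points) and a 3′ splice site of Ank3 (4.26), with a median of 12.1. These distances are descriptions over 7 libraries that all events share.

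Other genes of these structures were taken from 3 lists. Of 29 names for the chromosomal passenger complex and its loading and cytokinesis partners, only Birc5 and Incenp had listed events, and Aurkb, its kinase, and Cdca8, its borealin subunit, had none. Of 106 centrosome and basal body names, 4 genes were listed (Fopnl, Haus8, Mzt1 and Pcm1) with 6 events, of which 5 passed limma as lower and 1 as higher. Of 81 kinetochore, spindle and checkpoint names, 1 was listed, Bod1l, with 1 event that passed as higher. Over all events 95.7% passed in either direction, and the median difference was −11.3 points over all events. It was −25.5 over the 6 centrosome events and −11.6 over the 2 passenger complex events. The 2 Fopnl events, which share junctions, are among the former, and the latter are both member events. These medians thus rest in part or wholly on member genes. Members and lists alike were chosen with earlier results of these data known. A gene without a listed event cannot be called unchanged.

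Pcm1 encodes the scaffold of centriolar satellites and changed in both directions. A 117-base coding exon at chr8:41261360-41261476 had 51.28%, 52.70% and 58.21% in controls 1, 2 and 7 and 33.33%, 22.73%, 24.17% and 37.97% in mutants 3, 4, 5 and 9 (difference −24.5 points, limma SE 4.02). A 165-base coding exon at chr8:41303987-41304151 had 81.71%, 76.84% and 85.19% and then 90.38%, 92.00%, 90.55% and 91.67% (difference 9.90 points, limma SE 2.28). Both lengths are divisible by 3. The groups were separate for each exon, as they were in either direction in 95.7% of all listed events. The mutants were close together for the second exon (SD 0.805 points) and spread for the first (SD 7.32 points).

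Mzt1 encodes a small partner of the gamma-tubulin complex, which starts microtubules. Its 146-base exon, whose length is not divisible by 3, had 65.79%, 67.24% and 81.58% in the controls and 44.83%, 47.27%, 35.83% and 41.94% in the mutants (difference −29.1 points, limma SE 4.36). Control 7 stood above the other controls, and without it the difference was −24.0 points. This size is close to those of the Fopnl exons. Haus8 belongs to the augmin complex, which branches microtubules within the spindle. Its 66-base exon had 91.30%, 95% and 100% in the controls and 70.00%, 89.13%, 76.47% and 79.55% in the mutants (difference −16.6 points, limma SE 4.38), with mutant 4 only 2.17 points below the lowest control. Bod1l is a relative of the kinetochore protein Bod1 that is known for protecting replication forks. Its 141-base coding exon was higher in the mutants, at 55.10%, 62.86%, 59.57% and 47.27% against 37.10%, 32.73% and 24.56% in the controls (difference 24.7 points, limma SE 4.29).

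**Figure D4:**
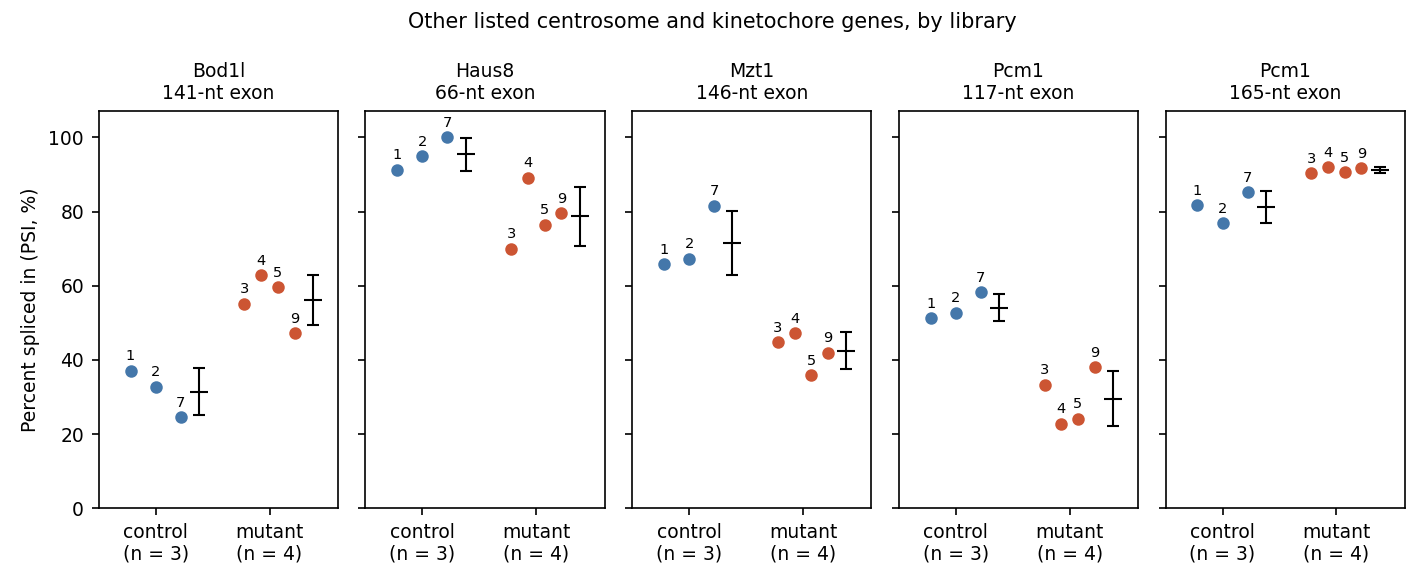
PSI in percent (vertical axis) of the other listed exons of centrosome and kinetochore genes in each control library (blue) and mutant library (orange), with replicate numbers beside the points and the group mean ± SD to their right. Inclusion is lower in the mutants for Haus8, Mzt1 and the 117-base Pcm1 exon and higher for Bod1l and the 165-base Pcm1 exon. The groups are separate in every panel, as they are in either direction in 95.7% of the 278 listed events.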

How the data were processed

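Libraries were made from total RNA with the Illumina TruSeq protocol, per the labels. The submitters' processing notes name Bowtie, TopHat, SAMtools, DESeq and mm9, with no versions, and the series text names JuncBASE for the splicing events. Per the file headers, the authors deposited 1 PSI column per library in percent, group medians in percent, and their difference, a score in points. Raw and corrected p-values of JuncBASE and DRIMSeq are also deposited by the authors; filters and read numbers per event are not given in the sources used here, so depth is unknown. All 7 library columns were assigned by title, and 0 were left unused.

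Despite the mm9 note, coordinates were read as GRCm38, because all 4 exons and 9 of the 16 junctions coincide exactly with GENCODE M21. Exon sequence and reading frames came from M21 transcripts (those of 140 codons for Birc5, 876 for Incenp and 174 for Fopnl, with the 3-exon Birc5 transcript for comparison), and RefSeq names from its GRCm38.p6 table. Differences of means and their SE came from limma 3.58.1 in R 4.3.3, fitted to PSI of all 278 events. The fit was tested on simulated data, which had no upper limit of PSI and held many unchanged events. The listed events differ in both respects, so that test does not measure how the fit performs on them. Summaries used Python 3.11.15 with pandas 2.3.3 and numpy 2.4.6. The named genes were the 3 members, the 3 nearest other genes to each member's exon with the largest difference of medians, and up to 8 listed genes of each list by size of the difference of medians. One of these nearest genes is not reported here. The event under the joined name Dnajc7Sfi1 lies in Dnajc7 and was not counted for Sfi1. The members and lists were chosen with earlier results of these data known. Alternatives left out each library, used medians, the logit scale, other limma options or cassette exons alone.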

Additional observations from a re-analysis of the deposited data

How the results depend on the processing

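No paired analysis was possible because the groups share no replicate numbers. The 4 differences kept their sign with medians or with any library left out, and moved by less than the SD pooled over both groups (4.37 points for Birc5 exon 2, 4.39 for Incenp exon 13, 3.60 for Fopnl exon 2 and 2.96 for Fopnl exon 3). Leaving out 1 library gave −14.2 to −9.17 points for Birc5 exon 2, −14.5 to −10.5 for Incenp exon 13, −28.8 to −24.3 for Fopnl exon 2 and −31.4 to −28.9 for Fopnl exon 3. As differences of medians they were −13.6, −13.6, −27.2 and −28.7 points. The number of events past the limma threshold, 266 of 278, was 239 to 266 with 1 library left out, 275 on the logit scale, 278 with a trend and robust prior and 271 with group-level array weights. It was 169 of 173 with cassette exons alone, where fewer events were tested. The 4 member events passed in all 11 of these fits, which repeat the contrast that selected them. Unknown read numbers limit the precision of every PSI value.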
